A study of Mus musculus with 8 samples.

Results

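Nuclear receptors are transcription factors that bind DNA and, in many cases, a small lipophilic ligand such as a retinoid, a bile acid, a steroid or a foreign compound. The 38 mouse genes described here form a list of receptors from subfamilies NR1 to NR6 and NR0, out of 21951 protein-coding genes in the GENCODE annotation of mm10. Receptors outside that list were not analysed here. A region of open chromatin was assigned to a receptor gene where it overlapped the gene body or lay within 10 kb of it.

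The regions come from ATAC-seq, in which a transposase cuts accessible DNA, on nuclei isolated from frozen adult mouse livers. The sample labels give the strain as C57BL/6, and the study's methods as C57BL/6J. Each library was made from 50000 nuclei. There were 4 libraries from control livers, whose titles carry the word cre, and 4 from Alb-D2KO livers. Alb-D2KO mice carry a floxed Dio2 gene, which encodes the type 2 deiodinase that makes active thyroid hormone from thyroxine, and a Cre recombinase under the albumin promoter. That promoter acts in hepatocytes, and Dio2 in other cells of the Alb-D2KO liver was not measured here.

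The study called regions on grouped libraries, and the 2 deposited lists, each named for a genotype, are read here as calls pooled by genotype. They hold 8031 regions called in control liver that overlap no region of Alb-D2KO liver, named control-only regions here, and 250 of the reverse kind. The lists give no value for a single library, so no replicate error is given and no test between genotypes was made. The depth of the libraries is unknown. In whole liver, fewer cells with an open site and less signal in each cell cannot be told apart. Regions called in both genotypes are in neither list, so a receptor gene without a control-only region may be open in both livers or closed in both.

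Receptors with liver functions are spread over several of these subfamilies. Nr1h4 (FXR) senses bile acids, Nr1h3 and Nr1h2 (LXR) sense oxysterols, Nr1i2 (PXR) and Nr1i3 (CAR) sense drugs and other foreign compounds, and Nr3c1 is the glucocorticoid receptor. Many of these receptors bind DNA as dimers with a retinoid X receptor, on paired copies of a short core sequence close to AGGTCA. Nr0b2 (SHP) lacks a DNA-binding domain and acts by binding other receptors, as in the control of bile acid synthesis.

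The DNA of several regions is shown first, because the results below turn on where these regions lie. Of the 49 control-only regions at receptor genes, 6 had AGGTCA, on either strand and with no mismatch, within the 101 bases centred on the summit, a share of 12.2% beside 13.7% of the 7972 other control-only regions with a sequence. The 4 of these outside exons and promoters are printed, with the summit of the region of largest area at Nr1i2, which holds no such match. All are plus-strand sequence of mm10, and capitals mark AGGTCA or its reverse complement. The Nr1i2 intron region of area 358 has its window at chr16:38288947-38289047, the Nr1i2 intron region of largest area at chr16:38279829-38279929, the region upstream of Nr1i3 at chr1:171212982-171213082, the Rora intron region at chr9:69184066-69184166 and the region downstream of Nr0b2 at chr4:133563395-133563495.
Nr1i2 intron, area 358: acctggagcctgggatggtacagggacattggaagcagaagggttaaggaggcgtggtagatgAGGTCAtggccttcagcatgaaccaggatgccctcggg
Nr1i2 intron, largest area: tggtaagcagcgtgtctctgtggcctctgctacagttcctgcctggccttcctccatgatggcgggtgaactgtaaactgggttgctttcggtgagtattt
Nr1i3 upstream: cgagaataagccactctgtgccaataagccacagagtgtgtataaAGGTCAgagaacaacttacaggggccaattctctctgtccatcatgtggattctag
Rora intron: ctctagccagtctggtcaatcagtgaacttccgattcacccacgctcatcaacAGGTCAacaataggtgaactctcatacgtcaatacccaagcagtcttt
Nr0b2 downstream: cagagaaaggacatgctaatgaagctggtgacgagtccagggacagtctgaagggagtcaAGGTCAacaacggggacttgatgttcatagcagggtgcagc

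RefSeq promoter windows of GRCm38.p6, from 250 bases before to 50 after a start, were found for 35 of the 38 genes. Hnf4g, Nr3c1 and Nr5a1 had no entry. A control-only region overlapped a window of 5 of them: Rara, Nr1i2, Nr4a2, Nr6a1 and Rxrb. The first 4 are shown, each 5′ to 3′ on the strand of its gene, because a control-only region lies on them. The Rxrb window is not printed because 204 of its bases are annotated UTR, and it holds 4 matches to the SP1 box GGGCGG and 1 to the forkhead core TGTTTAC. The windows lie at chr11:98964622-98964921 on the plus strand for Rara, chr16:38294775-38295074 on the minus strand for Nr1i2, chr2:57123954-57124253 on the minus strand for Nr4a2 and chr2:38784466-38784765 on the minus strand for Nr6a1. Capitals mark any match, on either strand, to AGGTCA, to the steroid receptor core AGAACA, to the SP1 box GGGCGG or to the forkhead core TGTTTAC. Of all 32851 RefSeq windows, 16.3% held AGGTCA, 19% held AGAACA, 35.7% held GGGCGG and 3.65% held TGTTTAC.
Rara: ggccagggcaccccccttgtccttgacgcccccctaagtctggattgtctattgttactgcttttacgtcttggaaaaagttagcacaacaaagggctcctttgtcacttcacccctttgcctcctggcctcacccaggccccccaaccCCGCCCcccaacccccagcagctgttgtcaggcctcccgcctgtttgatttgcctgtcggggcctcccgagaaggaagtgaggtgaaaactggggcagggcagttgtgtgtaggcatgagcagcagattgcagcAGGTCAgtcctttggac
Nr1i2: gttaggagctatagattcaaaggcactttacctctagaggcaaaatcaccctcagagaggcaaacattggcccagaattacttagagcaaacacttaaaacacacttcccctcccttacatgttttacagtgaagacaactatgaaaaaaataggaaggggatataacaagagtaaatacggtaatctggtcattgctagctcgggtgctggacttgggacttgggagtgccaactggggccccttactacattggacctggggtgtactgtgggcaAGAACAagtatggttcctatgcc
Nr4a2: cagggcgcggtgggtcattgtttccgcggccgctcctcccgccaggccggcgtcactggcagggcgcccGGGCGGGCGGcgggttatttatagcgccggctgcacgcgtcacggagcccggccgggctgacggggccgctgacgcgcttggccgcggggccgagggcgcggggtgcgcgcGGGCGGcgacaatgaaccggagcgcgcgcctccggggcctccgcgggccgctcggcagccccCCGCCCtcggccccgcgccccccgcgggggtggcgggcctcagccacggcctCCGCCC
Nr6a1: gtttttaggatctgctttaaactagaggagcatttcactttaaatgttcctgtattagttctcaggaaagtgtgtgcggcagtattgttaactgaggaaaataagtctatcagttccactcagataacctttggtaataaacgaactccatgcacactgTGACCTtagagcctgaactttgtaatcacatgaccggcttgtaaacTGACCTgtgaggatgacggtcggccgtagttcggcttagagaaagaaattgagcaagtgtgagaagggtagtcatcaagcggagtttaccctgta

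The windows differ in base composition. The Nr4a2 window is 81.7% G and C and its capitals mark SP1 boxes, whereas the Nr6a1 window is 42.3% G and C and carries AGGTCA on the opposite strand at 2 places. The Nr1i2 window, at 45.3% G and C, holds a single AGAACA in the 50 bases after the start. The Rara window holds 1 AGGTCA and 1 SP1 box. Its start is in RefSeq, but the nearest GENCODE start is 4368 bp from the overlapping region, which is therefore classed as intronic below. A match of these letters is a description of the DNA and not evidence that a receptor binds there.

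Control-only regions were found at 21 of the 38 receptor genes (55.3%), beside 25.1% of all protein-coding genes. The receptor list is fixed and was chosen with earlier results of these data known, and these shares were not tested against each other. The 21 genes carried 49 regions, each at a single listed receptor. Of the 21 genes, 9 had 1 region and 12 had 2 or more. The genes with the most were Rora with 7, Nr1i2 with 6 and Nr1h4 with 4, and 3 regions each lay at Rara, Nr1i3, Nr3c1, Nr3c2 and Nr4a2. At least 3 regions were thus found at 21.1% of receptor genes, and at 3.76% of the 21913 other protein-coding genes. No control-only region had an area below 200. The single regions of Rarg and Esr1, with areas of 203 and 208, lay close to that floor. If only areas of at least 300 counted, 15 receptor genes would keep a region. Rora would then have 3 regions, Nr1i2 5 and Nr1h4 2. The order of these genes therefore depends on that limit.

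Receptor genes are long, with a median of 46.8 kb against 17.4 kb for other protein-coding genes, and a longer gene has more room for a region. Each receptor gene was therefore set beside all other protein-coding genes from 0.8 times its length up to the inverse of that factor, which were between 90 and 2727 genes. On average 28.4% of such genes had a control-only region, which would give 10.8 genes of 38 where 21 were seen, and 19.1 regions where 49 were seen. Whether the similar-length genes are open or expressed in liver was not used in this comparison, and its part in the difference was not tested.

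The difference was present at every length, as the plot by gene length shows. Among receptor genes under 10 kb, 4 of 6 had a region (Nr1i3, Rxrb, Nr2f6 and Nr0b2), against 17.6% of other genes of that size. Between 10 and 30 kb it was 5 of 10 against 25.9%, between 30 and 100 kb 5 of 11 against 30.3%, and over 100 kb 7 of 11 against 34.8%.

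**Figure D1:**
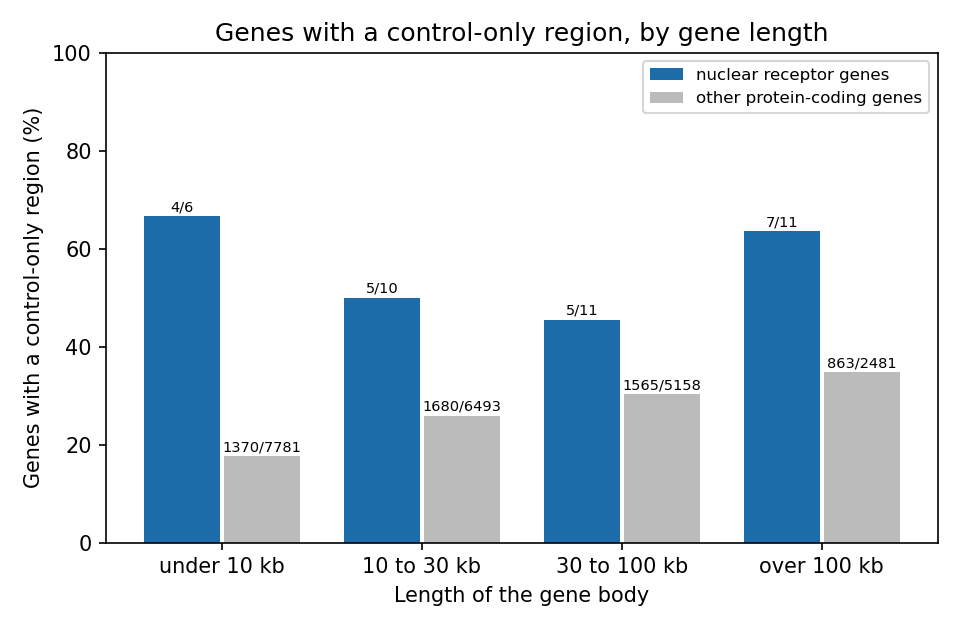
Share of genes (%) with a control-only region in the gene body or within 10 kb, by gene length, for the 38 nuclear receptor genes (blue) and other protein-coding genes (grey), with counts above the bars. The blue bar is the higher at each length, from 45.5% to 66.7%, against 17.6% to 34.8% in grey.

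**Figure D2:**
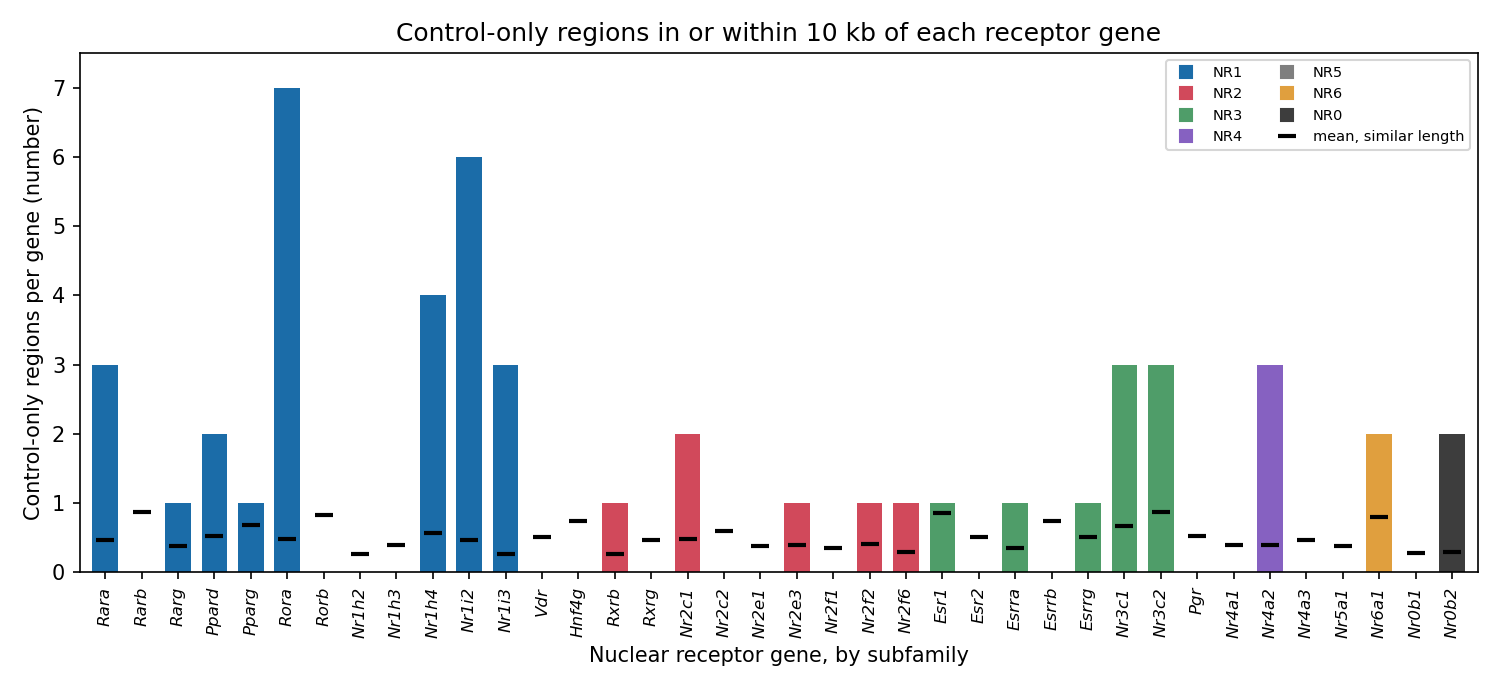
Number of control-only regions at each of the 38 receptor genes, coloured by subfamily; the black dash is the mean number over other protein-coding genes of similar length. Rora has 7 regions, Nr1i2 has 6 and 17 genes have none.

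The xenobiotic sensors were the group with the most regions per gene. Both genes had control-only regions, 9 in all, where similar-length genes would give 0.490 genes and 0.734 regions. Nr1i2, the pregnane X receptor that switches on drug-metabolising enzymes, had 6 regions in a stretch of 15.3 kb at its 5′ end. Of 2073 other genes of similar length, 5 had as many (0.241%). The region of largest area lay in an intron at chr16:38279711-38280123, 14700 bp from the nearest start site, with an area of 459, which ranked 702 among all control-only regions. Next came an intron region of area 407, at chr16:38282567-38283060. A further 3 intron regions had areas of 291, 332 and 358, and the last of these carries the AGGTCA printed above. The remaining one, at chr16:38294600-38294981 with an area of 343, covered the annotated start and overlapped annotated UTR. The gene Maats1 lies within 10 kb of this region and of the nearest intron region.

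Nr1i3, the constitutive androstane receptor, is a short gene of 6.73 kb and all 3 of its regions lay outside the gene body. An upstream region 783 bp from the start, at chr1:171212934-171213186, had an area of 252 and holds AGGTCA at 2 places. Tomm40l also lies within 10 kb of that region. A second upstream region, 9290 bp away with an area of 413, also lies within 10 kb of Pcp4l1. The largest, with an area of 485, lies 4153 bp past the 3′ end at the start site of Apoa2, an apolipoprotein gene expressed in liver. That region has further genes within 10 kb, among them Fcer1g and Tomm40l. If each region counted only for the nearest protein-coding gene, Nr1i3 would keep 1 of the 3.

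The bile acid and lipid sensors had regions at 3 of 5 genes, 7 regions in all, where similar-length genes would give 1.43 genes and 2.44 regions. Nr1h4, the bile acid receptor FXR, carried 4 of them, and 2.94% of the 1499 genes of its length had as many. Its start-site region, at chr10:89533333-89533958, was 626 bp wide and covered the annotated 5′ end of the gene with an area of 550, at rank 289 of 8031. A second region, of area 295, lay in an intron 1271 bp from that start. The other 2 lay in introns toward the 3′ end, 35403 and 47378 bp from the nearest start, with areas of 251 and 330.

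Ppard, which responds to fatty acids and is expressed in many tissues, had 2 intron regions with areas of 225 and 420, the larger at chr17:28287803-28288342. Pparg, the receptor that directs fat cell formation, had 1 region of area 233 over a coding exon, at chr6:115462967-115463293. The oxysterol receptors Nr1h2 and Nr1h3 had none, and their nearest control-only regions were 64.2 kb and 29.5 kb away.

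The retinoid and vitamin D receptors had regions at 3 of 6 genes, 5 regions in all, where similar-length genes would give 1.69 genes and 2.96 regions. Only 3 of the 5 regions were at least 200 bp wide, and 3 had an area of at least 300. Rara, the retinoic acid receptor alpha, had 3 intron regions. The region at chr11:98964781-98965215, which overlaps the RefSeq promoter printed above, had an area of 482, the region at chr11:98941468-98942291 was 824 bp wide with an area of 320, and a narrow one had an area of 202. Rarg, the gamma form, had 1 region of area 203 over a coding exon. Rxrb, a partner of many receptors of the family, had 1 region of area 314 at its own start site, at chr17:34032311-34032632, and the genes Col11a2, H2-Ke6, Ring1 and Slc39a7 lie within 10 kb of it. Rarb, Rxrg and the vitamin D receptor Vdr had none, with the nearest control-only region 839.9, 260.7 and 272.5 kb away.

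The steroid hormone receptors had regions at 3 of 5 genes, 7 regions in all, where similar-length genes would give 1.63 genes and 3.43 regions. An area of at least 300 was reached by 3 of the 7. Nr3c1, the glucocorticoid receptor, carried the region of largest area of the whole receptor list, at chr18:39489625-39490129. Its area was 671, at rank 101 of 8031, and it covered annotated start sites of the gene, 29.5 kb downstream of the outermost annotated 5′ end. This region was 78.2% G and C, the highest of the 49, and held 7 matches to GGGCGG. A second region of Nr3c1, of area 209, lay beyond a gap of 119 bp and 143 bp from a start. The last one, of area 381, was intronic and 56278 bp from a start.

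Nr3c2, the mineralocorticoid receptor, had 3 intron regions with areas of 248, 252 and 318, gathered in 12.2 kb of a gene of 345.6 kb. Esr1, the estrogen receptor alpha, had 1 intron region of area 208. Esr2 and Pgr, the estrogen receptor beta and the progesterone receptor, had none. Esr2 has its nearest control-only regions 18691 and 19457 bp away, outside the 10 kb limit.

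The remaining 20 genes, mostly orphan receptors with no known ligand when they were named, had regions at 10 genes and 21 regions in all, beside 5.55 genes and 9.52 regions from similar-length genes. Rora, which takes part in the circadian clock and in lipid metabolism, had 7 intron regions spread over 499.3 kb of a gene of 734.5 kb. None of the 90 other protein-coding genes of similar length had as many, and the highest count among them was 5. Per unit of length, flanks included, this was 0.928 regions per 100 kb, against 9.02 at Nr1i2 and 11.2 at Nr1i3. The largest 2, with areas of 436 and 426, lay at chr9:68883717-68884097 and chr9:68941009-68941403.

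Nr0b2, the small heterodimer partner, had 2 regions outside a gene body of 3.16 kb. The upstream region, 984 bp from the start, had an area of 204. The downstream region at chr4:133563129-133563584, 6592 bp past the gene, had an area of 505, which ranked 434 of 8031, and holds AGGTCA near its summit. Nudc also lies within 10 kb of the upstream region, so that region is not assigned to Nr0b2 alone, and no other protein-coding gene lies within 10 kb of the downstream region. Nr0b1, its relative on the X chromosome, had none.

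Nr4a2, a receptor that is rapidly induced by many stimuli, had 3 regions close to its 5′ end. They had areas of 306 in the gene, 202 just upstream and 353 at 3509 bp upstream, over an exon of the non-coding gene BB557941. Nr4a1 and Nr4a3 had none within 10 kb. The nearest to Nr4a1 lay 11.5 kb away, at another gene's start site.

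Nr6a1, a receptor best known from germ cells, had a region of area 329 over a start site deep in the gene, at chr2:38784429-38784703, and a second of area 293 at 359 bp from another start. Its neighbour Nr5a1 had none.

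Nr2f6 had the widest region of the list, 919 bp with an area of 419, at chr8:71380149-71381067, covering a start site of its own and a coding exon. Nr2f2, which is prominent in venous endothelium, had 1 region of area 285 at 273 bp from a start, in a non-coding exon. Nr2c1 had 2 regions of areas 232 and 356 separated by 1165 bp. Nr2e3, a photoreceptor gene, had 1 of area 223 in an intron, over an exon of the long non-coding gene Gm15507. Nr2c2, Nr2e1, Nr2f1 and Hnf4g had none.

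Esrra, an estrogen-related receptor that drives mitochondrial genes, had 1 region of area 234 covering a start site, at chr19:6920996-6921535. Esrrg had 1 intron region of area 355 in a gene of 606.1 kb, and Esrrb and Rorb had none. Of the 17 genes without a region, 12 had none even within 100 kb.

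By subfamily, 8 of 13 NR1 genes, 5 of 10 NR2 genes and 5 of 8 NR3 genes had a control-only region, where similar-length genes would give 3.72, 2.73 and 2.49. The NR4 subfamily had 1 of 3, near the 0.841 expected in that way. NR6 had its only gene (expected 0.367), NR0 1 of 2 (0.385) and NR5 none of 1 (0.264). The NR1 genes held 27 of the 49 regions, where similar-length genes would give 6.71. The NR2 genes held 6, near the 4.35 from similar-length genes, and the NR3 genes 9 against 5.03. The NR4 genes held 3 regions against 1.26, NR6 2 against 0.79, NR0 2 against 0.567 and NR5 0 against 0.385. The subfamilies hold few genes and these differences among them were not tested.

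**Figure D3:**
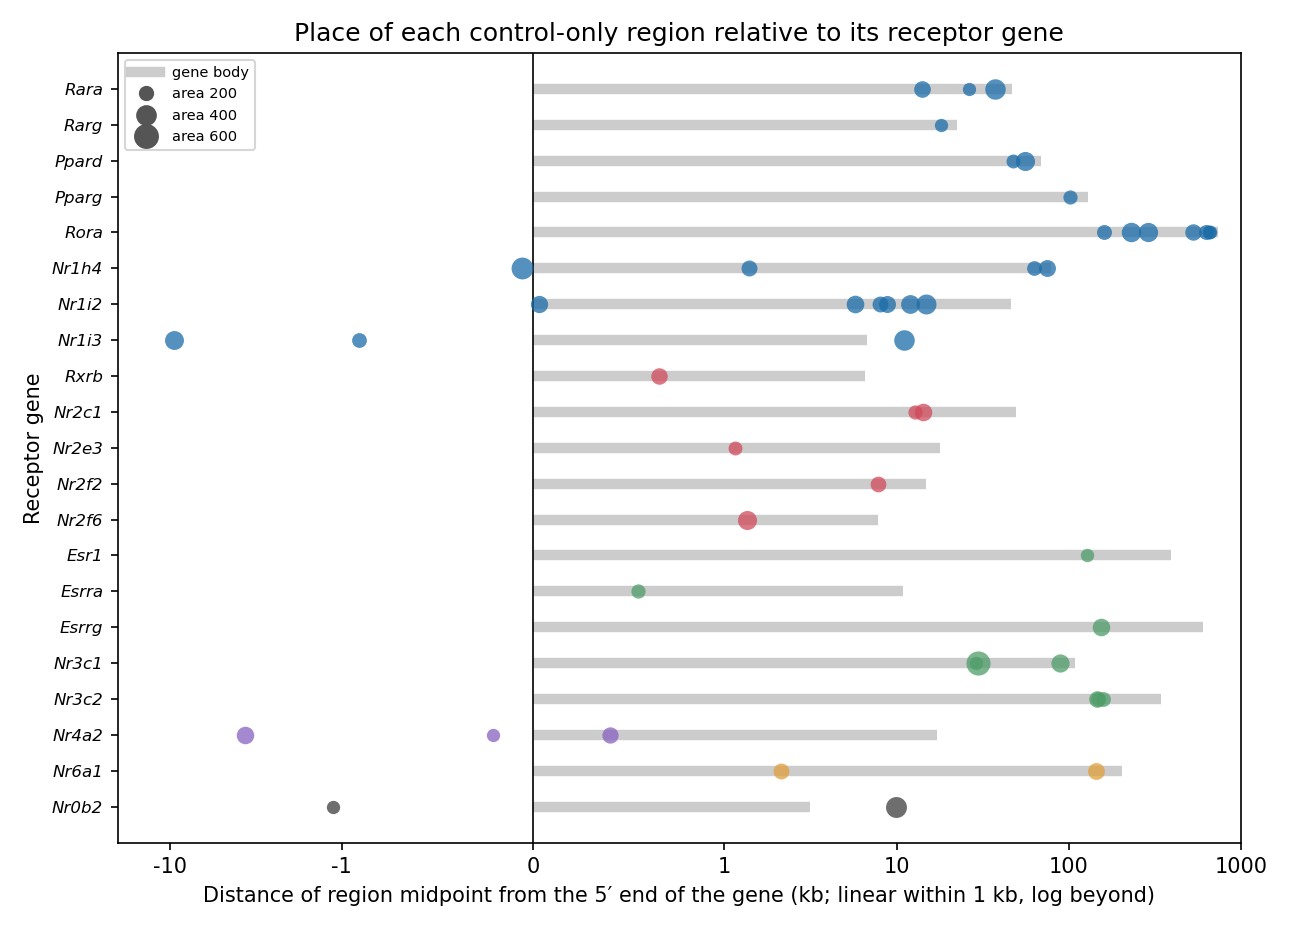
Position of each of the 49 control-only regions relative to the 5′ end of its receptor gene (kb), for the 21 genes with a region. Grey bars are gene bodies, point size follows area, and colours are subfamilies as in the bar plot of regions per gene. Most points lie inside the grey bars, and all of those of Nr1i3 and Nr0b2 and 2 of those of Nr4a2 lie outside; the start-site region of Nr1h4 straddles the 5′ end.

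Most regions were inside the genes. Of the 49, 42 overlapped the gene body and 7 lay outside it. The nearest outside was 103 bp from Nr4a2 and the farthest 9290 bp from Nr1i3. Just beyond the 10 kb limit, a region lay 10002 bp from Rarg with an area of 511, and the next were 11476 bp from Nr4a1 and 11747 bp from Nr1i3. Another protein-coding gene lay within 10 kb of 12 of the 49 regions. Beyond those pointed out above, they include the regions of Rarg, Nr2e3, Nr2f6 and Esrra, and the Nr6a1 region of area 293.

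Each region was placed in the class met first among promoter (within 200 bp of any annotated start site), exon, intron and intergenic. By this rule 29 regions (59.2%) were intronic, 10 (20.4%) promoter, 6 (12.2%) exonic and 4 (8.16%) intergenic. At other protein-coding genes, 46.9% of 6338 control-only regions were intronic, 23% promoter, 11.9% exonic and 18.2% intergenic. The promoter share of receptor genes was thus close to that of other genes, while the intronic share was higher and the intergenic share lower. These shares were not matched for gene length, and receptor genes are longer, with a median of 46.8 kb against 17.4 kb. Rora, the longest, gave 7 of the 29 intronic regions. The part of length in the class shares was not tested.

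**Figure D4:**
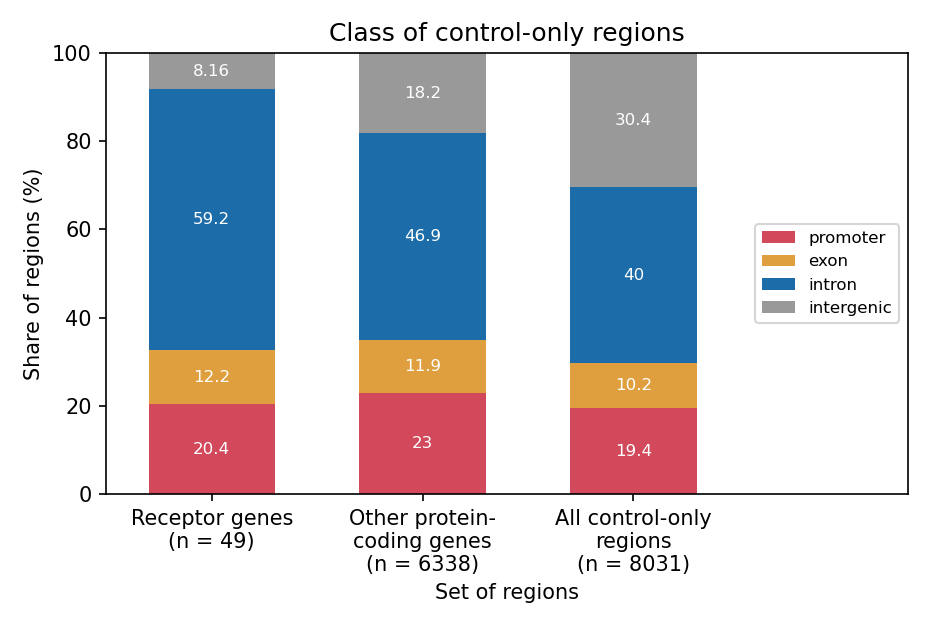
Share of control-only regions (%) in each class, at receptor genes, at other protein-coding genes and over the whole list. Intron regions make up 59.2%, 46.9% and 40% of the 3 sets.

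Of the 10 promoter regions, 9 lay at a start site of the receptor gene itself, and the tenth is the Apoa2 start beside Nr1i3. These 9 belonged to 8 genes: Nr1h4, Nr1i2, Rxrb, Nr2f6, Esrra, Nr3c1, Nr4a2 and Nr6a1. A region within 200 bp of an own start was therefore found at 21.1% of receptor genes, beside 5.95% of all protein-coding genes and an average of 6.95% over similar-length genes. An own start here is any GENCODE start of the gene. No control-only region overlapped the RefSeq promoter windows of Nr1h4, Nr2f6 and Esrra, and Nr3c1 had no such window.

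The median distance from a region to the nearest start of its receptor gene was 5809 bp, with quartiles of 783 and 22991 bp and a largest value of 254137 bp in Rora. For other protein-coding genes the median was 5392 bp, with quartiles of 984 and 11915 bp. Distances over 50 kb made up 16.3% of the receptor regions and 5.19% of the others. All 8 such regions lay in Rora, Nr3c1, Nr3c2 and Esrrg, which are all over 100 kb long.

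The area of a region is read here as the area under its curve of significance, from the column layout of the caller, so it grows with width as well as height. Receptor regions had a median area of 310.5, with quartiles of 234 and 381 and a range from 202 to 671. Over the regions of other protein-coding genes the median was 279.5, with quartiles of 233 and 354. Widths were alike, with medians of 327 and 335 bp, and the area per base pair had medians of 0.97 and 0.90. The quartiles overlap and the receptor regions lie within the cloud of other regions in the plot of area against width.

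**Figure D5:**
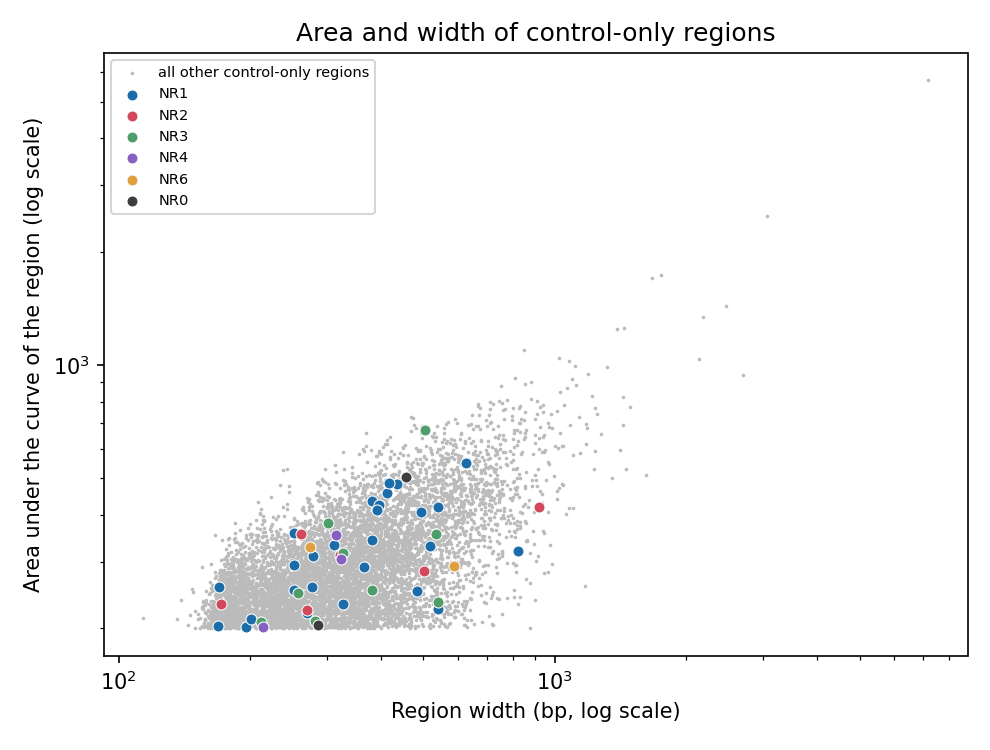
Area of each control-only region against its width (bp), both on log scales, for the 49 regions at receptor genes, coloured by subfamily, and all other control-only regions (grey). The receptor regions span areas from 202 to 671 and widths from 169 to 919 bp, inside the grey cloud.

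Regions with an area of 300 or more made up 26 of the 49 (53.1%), beside 41.5% at other protein-coding genes. Among the 1000 largest areas of the whole list were 8 receptor regions, 16.3% of them beside 12.5% of all regions. They lay at Rara, Rora, Nr1h4, Nr1i2, Nr1i3, Nr3c1 and Nr0b2. The summit q, the false discovery estimate of the caller, had a median of 3.12 on the −log10 scale for receptor regions and 3.14 for other genes.

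The base content of the receptor regions was like that of other control-only regions. Their median G and C content was 50.6%, beside 52.5% at other protein-coding genes, and it ranged from 33.7% in a Nr2c1 intron to 78.2% at the Nr3c1 start sites. Promoter regions had a median of 62.8% and intron regions 48.6%.

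Over their whole width, 21 of the 49 receptor regions held AGGTCA (42.9%), beside 35.8% on average over other control-only regions of similar width, within the same factor as for gene length. The 21 regions belonged to 15 of the genes. AGAACA was in 30.6% of receptor regions and 25.6% of similar-width regions, GGGCGG in 24.5% and 21.4%, and TGTTTAC in 10.2% and 7.99%. Both strands were read without mismatch. All the shares were slightly higher at receptor genes, and none was tested.

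Genes that receptors regulate, or that make and carry their ligands, were counted in the same way. Of 52 such genes, 31 had a control-only region (59.6%), where similar-length genes would give 13.8. By receptor, with the count from similar-length genes in brackets, there were 5 of 10 bile acid genes (2.62), 7 of 8 oxysterol genes (2.24), 5 of 7 xenobiotic genes (1.90), 5 of 7 glucocorticoid genes (2.0) and 5 of 7 PPAR genes (1.76). Retinoid genes, with 4 of 10 (2.60), and vitamin D genes, with 0 of 3 (0.710), were closer to or below it. Among the oxysterol genes, Abcg5 and Abcg8 share a single region, which is counted for each. Of the 52 genes, 15 had a region of the promoter class, where similar-length genes would give 5.26, and 9.5% of all protein-coding genes had one.

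Promoter regions of large area in that list lay at Angptl4, a PPAR target that inhibits lipoprotein lipase, with 899, and at Fgfr4, the hepatic receptor for the hormone that restrains bile acid synthesis, with 749. Alas1, which starts haem synthesis, had 585. Por, the electron donor of microsomal P450 enzymes, had 500.5, Scd1, a fatty acid desaturase, had 416, and the clock gene Per1 had 405. The transporter gene Abcc3 had 384, the retinoic acid hydroxylase Cyp26a1 had 321 and the retinol dehydrogenase Rdh10 had 266. All 9 of these regions covered a start site of the gene named. Cyp7a1, the rate-limiting enzyme of bile acid synthesis, and the PXR and CAR target genes Cyp3a11 and Cyp2b10 had no control-only region within 10 kb.

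Cell type markers were counted as well, because whole liver holds several cell types. Of 6 hepatocyte markers, 5 had a control-only region, Cps1 being the exception, and these carried 13 regions, where similar-length genes would give 1.58 genes. The counts were 0 of 6 for stellate cells, 2 of 5 for endothelium, 0 of 5 for Kupffer cells, 1 of 5 for cholangiocytes and 1 of 4 for lymphoid cells, beside 1.5, 1.53, 1.44, 1.08 and 1.05 from similar-length genes. Over all 31 markers the count was 9 (29%), near the 8.19 from similar-length genes. Promoter-class regions were found, among others, at Serpinc1, over its own start, and at Apoa1 and Stab2. The region of that class with the larger area at Apoa1, and the only one at Stab2, lay at another gene's start site. The largest region of the hepatocyte list, over an exon at Apoa1, had an area of 1253. Whether cell composition had a part in the receptor results was not tested.

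The reverse list gave no receptor gene. Of the 250 Alb-D2KO-only regions, none lay in or within 10 kb of any of the 38 genes, where 1.01% of all protein-coding genes had one. With a list this short, a count of 0 among 38 genes differs little from that share. The 52 target and ligand genes and the markers had none either.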

How the data were processed

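The authors prepared ATAC-seq libraries from liver nuclei, aligned reads to mm10 with BWA 0.7.17 and called regions with Genrich 0.6 on grouped libraries, leaving out blacklisted regions, per the submitters' processing notes and the study's methods. The methods do not say that the groups were the genotypes, which is read here from the deposit of 1 list for each. Regions of one genotype that overlapped none of the other were deposited as 2 lists. The deposited lists have no header, so from the layout that Genrich writes, column 7 is read here as a signal, the area under the curve of a region, and columns 8 and 9 as −log10 p-value and −log10 q-value at the summit. The smallest deposited area was 200. Column 10, the deposited summit offset, gave the summit positions.

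Here regions were assigned to genes of GENCODE M21 (mm10), whereas the study names a later release. Gene bodies, start sites, exons and lengths came from that annotation. Classes were promoter (200 bp), exon, intron and intergenic, at a minimum overlap of 1 bp. Sequences were read from GRCm38 with pysam 0.24.0 and from RefSeq promoter windows. Python 3.11.15, scipy 1.17.1 and matplotlib 3.10.9 were used, and the assignment was tested on simulated regions. Described with values were receptor genes with at least 1 region, and, from the companion and marker lists, genes with a promoter-class region, at most 10 in each by area. A few others were named after their values were seen, and a few items are not reported here. The members and lists were chosen with earlier results of these data known. Alternatives changed the distance, area, width, class and length rules. The depth per library is unknown.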

Additional observations from a re-analysis of the deposited data

How the results depend on the processing

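No paired analysis was possible because the lists used here give no value for a single library. No library was left out, since values per library were not analysed here. The count of 21 receptor genes stayed between 15 and 25 under every alternative distance, area, width, merging, nearest-gene and midpoint rule, and the count of Alb-D2KO-only regions at receptor genes stayed at 0. Target and ligand genes ranged from 22 to 43 around 31.

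With a distance of 50 kb, 25 receptor genes had a region where similar-length genes would give 17.1, a smaller ratio than at 10 kb. At 50 kb the promoter regions numbered 18, exon regions 13 and intergenic regions 10, the median distance to a start was 17127 bp, and NR2, NR4, NR5 and NR0 genes held 10, 7, 1 and 4 regions. With the gene body only, intergenic regions fell to 0, NR4 regions to 1 and NR0 regions to 0. With 5 kb, intergenic regions were 2 and NR0 regions 1.

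With areas of at least 300, similar-length genes would give 5.48 receptor genes, beside 15 seen. The regions numbered 26, with 2 exon, 15 intron and 2 intergenic regions, and the median area was 369.6 by construction. NR1, NR2, NR3, NR6 and NR0 genes then held 15, 3, 4, 1 and 1. Where the midpoint decided, promoter regions were 6 and exon regions 3. With a promoter window of 1000 bp intergenic regions were 2. With 3000 bp, promoter regions were 19, exon regions 3 and intergenic regions 2, and 13 genes had a region at an own start. By role, 50 kb gave 9 regions at retinoid and vitamin D receptors, 11 at lipid and bile acid sensors and 32 at the 20 remaining genes, and an area of at least 300 gave 3, 3 and 10, with 3 at steroid receptors. A width of at least 200 bp left 3 at retinoid and vitamin D receptors.

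Of 304 counts for single receptor genes under these alternatives, 32 changed by more than 1.5 times in either direction, or to or from 0. The 304 include the 17 genes with no region, whose counts were taken as unchanged where they stayed at 0.

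Absence from a call says only that the calling threshold was not met. The depth is unknown, and its part in the lists was not tested.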
